A study of Mus musculus with 18 samples.

Results

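The genes described here encode Brca1, its partner proteins and the wider machinery that detects, signals and repairs breaks through both strands of DNA. They were chosen by name, without reference to a measured value, as 37 genes. Every probe set that the array annotation ties to exactly 1 of them was taken, which gave 76 probe sets for 35 of the genes, of 45037 probe sets and 18193 genes in the series. Rbbp8 and Xrcc2 were matched to no probe set and were not analysed here. Mre11a is the gene now called Mre11, and H2ax the one formerly called H2afx.

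RNA came from brains of mice at postnatal day 7, in 6 groups of 3 arrays: wild-type cortex and knockout cortex on an Affymetrix A chip, the same pair of genotypes in cortex on a B chip, and wild-type and knockout samples titled rest, with brain as the source, on another array type that holds the probe sets of both chips. What tissue the word rest covers is not stated in the labels. The knockout animals carried a conditional Brca1 allele with floxed exons 5 to 13 and a null Brca1 allele, in which a neo cassette sits inverted near exon 11. Nestin, a gene of neural progenitors, drove Cre. Whether cells of vessels, meninges and blood kept the floxed allele is not stated in the labels and was not tested. The labels do not say whether the wild-type animals carried Cre or a floxed allele, nor whether the samples of different tables came from the same animals. Nothing states that arrays of a group came from separate animals beyond the series' mention of 3 animals a genotype for the cortex. If some did not, the p-values measure technical spread.

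Brca1 is a ubiquitin ligase when paired with Bard1 and acts at broken DNA and stalled replication forks. Through Palb2 it brings in Brca2, and the break is then copied from the sister chromatid. That route needs a replicated chromosome, and for this reason many of its genes are transcribed mostly in dividing cells, whereas end joining by the Ku proteins serves cells at any stage. In the developing brain, loss of Brca1 in neural progenitors is known for breaks, p53-dependent cell death and a small brain. By day 7 most cortical neurons have left the cell cycle, while granule cell precursors of the cerebellum still divide.

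The deposited values are MAS5 signals on a linear scale, given here after scaling each array to the common level of its table. Many cells of the tables are blank, and a probe set with a value on an array is called listed there. Of all probe sets, 54% to 58% were listed per A chip, 33.6% to 42.6% per B chip and 49.2% to 51.6% with the rest samples. A fold change was fitted only where at least 2 arrays of each genotype listed the probe set. It is given as knockout minus wild type on the log2(signal + 16) scale, which understates changes of dim probe sets. Fits were made with limma on every probe set of a table, p-values were adjusted over all of them, and called means an adjusted p below 0.05. The number of arrays limits the precision, a signal is not compared between probe sets or between tables, and in tissue RNA fewer cells of a type and less RNA per cell cannot be told apart.

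Member probe sets were listed more often than the arrays' probe sets in general by some counts and less often by others. On the A chip 30 of the 46 member probe sets (65.2%) were listed on at least 1 array, against 63.8% of all probe sets, and 18 (39.1%) on all 6 arrays, against 48.6%. The B chip listed 18 of 30 (60%, against 50%) on at least 1 array and 8 (26.7%, against 27.9%) on all 6. Of the 76 in the rest table, 56 (73.7%, against 60.1%) were listed on at least 1 array and 35 (46.1%, against 42.8%) on all 6. The counts below cover only the genes that could be read.

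Some of the closest partners of Brca1 had no listed value. Bard1, the obligate partner of Brca1 in its ubiquitin ligase, and Brip1, a helicase that binds the Brca1 carboxyl terminus, were blank on every array of every table that carries them. Blank on all cortex arrays, A and B chip together, were 6 genes: Bard1, Brip1, Chek1, which is the kinase that restrains mitosis after replication stress, Nbn, the sensor subunit of the Mre11 complex, Rad54l, a motor protein of strand exchange, and Atrip, the subunit that brings the kinase Atr to single-stranded DNA. Of these, Chek1, Nbn, Rad54l and Atrip had a listed probe set in the rest table. A blank says that no value is given, not that the transcript is absent.

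Listing did not separate the genotypes. On the A chip the wild-type arrays listed 27, 22 and 27 member probe sets and the knockout arrays 23, 26 and 23. On the B chip the counts were 11, 15 and 11 against 14, 12 and 10, and with the rest samples 42, 41 and 50 against 46, 45 and 43. The ranges overlapped in each table, and exact two-sided permutation tests gave p = 0.8, 1 and 1, the smallest p possible with 3 arrays a genotype being 0.1. No table had a member probe set that was listed on all 3 arrays of a genotype and on 0 of the other.

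**Figure D1:**
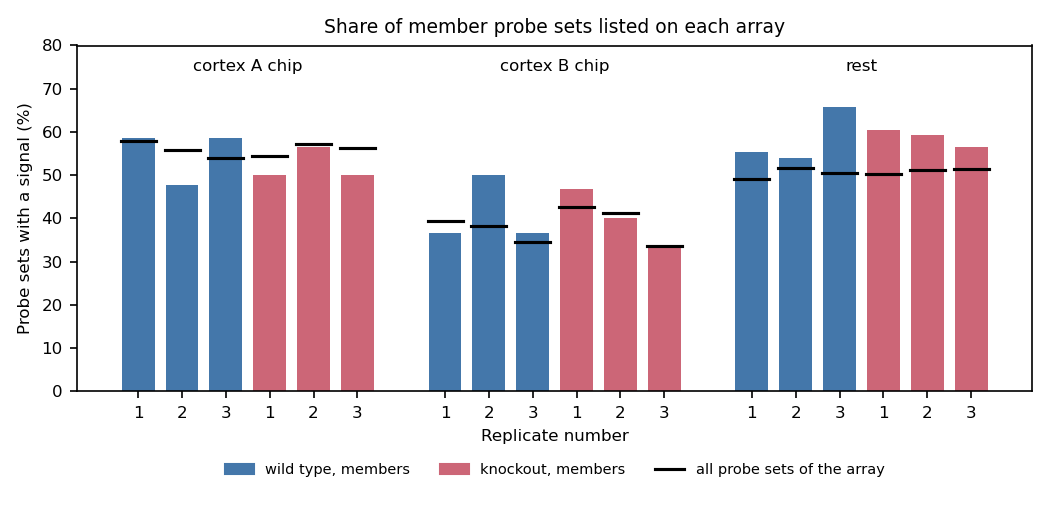
Bars give the share of member probe sets listed on each array, in percent of the member probe sets on that array type, for the 3 tables, with wild-type and knockout arrays in different colours. The black line marks the share of all probe sets listed on the same array. Wild-type and knockout bars overlap in every table, at 47.8% to 58.7% for the A chip, 33.3% to 50% for the B chip and 53.9% to 65.8% for rest.

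The stretch around the transcription start is shown for Brca1, the targeted gene, and for Uimc1, the member with the lowest p in cortex. It is also shown for Bard1, Brip1 and Chek1, the 3 genes blank in cortex that held an E2F-like match there. Such a stretch was found for 5 of the 6 blank genes. Each sequence is RefSeq's on GRCm38.p6 and runs from 250 bases before the start to 50 after it. Capitals mark matches, on either strand, to a set of E2F-like 8-mers, the CCAAT box, the cell cycle homology region (CHR) and the GC box.
Brca1 (chr11:101551906-101552205, minus strand): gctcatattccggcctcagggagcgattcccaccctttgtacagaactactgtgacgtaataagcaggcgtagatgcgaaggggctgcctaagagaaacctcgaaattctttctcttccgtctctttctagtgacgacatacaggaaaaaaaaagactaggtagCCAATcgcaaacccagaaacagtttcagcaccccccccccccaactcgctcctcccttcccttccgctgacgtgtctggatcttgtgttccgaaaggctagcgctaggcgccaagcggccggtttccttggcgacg
Bard1 (chr1:71102923-71103222, minus strand): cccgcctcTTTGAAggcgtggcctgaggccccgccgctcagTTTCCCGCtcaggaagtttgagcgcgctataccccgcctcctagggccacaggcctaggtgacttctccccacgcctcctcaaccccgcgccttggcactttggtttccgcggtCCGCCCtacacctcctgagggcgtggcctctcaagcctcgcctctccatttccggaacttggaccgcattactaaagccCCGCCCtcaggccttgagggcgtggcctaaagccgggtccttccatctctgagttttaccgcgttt
Brip1 (chr11:86201144-86201443, minus strand): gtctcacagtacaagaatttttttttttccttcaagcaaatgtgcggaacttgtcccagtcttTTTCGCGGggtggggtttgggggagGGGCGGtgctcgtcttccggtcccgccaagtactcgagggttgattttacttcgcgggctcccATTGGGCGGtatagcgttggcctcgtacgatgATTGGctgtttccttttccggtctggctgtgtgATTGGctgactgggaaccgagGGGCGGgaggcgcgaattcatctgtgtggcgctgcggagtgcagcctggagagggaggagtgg
Chek1 (chr9:36726609-36726908, minus strand): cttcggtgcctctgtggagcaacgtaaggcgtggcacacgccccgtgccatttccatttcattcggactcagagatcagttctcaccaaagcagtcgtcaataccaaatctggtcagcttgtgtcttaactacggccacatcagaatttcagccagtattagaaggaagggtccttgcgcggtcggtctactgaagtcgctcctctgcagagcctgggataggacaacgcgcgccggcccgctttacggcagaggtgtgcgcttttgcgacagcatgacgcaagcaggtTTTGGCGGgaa
Uimc1 (chr13:55100251-55100550, minus strand): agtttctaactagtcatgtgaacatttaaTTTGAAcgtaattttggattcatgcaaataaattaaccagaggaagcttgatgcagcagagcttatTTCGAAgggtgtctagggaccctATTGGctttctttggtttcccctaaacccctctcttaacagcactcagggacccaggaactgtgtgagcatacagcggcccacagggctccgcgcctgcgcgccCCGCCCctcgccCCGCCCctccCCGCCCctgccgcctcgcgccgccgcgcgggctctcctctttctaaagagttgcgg

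E2F factors switch on genes of DNA replication and repair as cells enter S phase, and CHR elements go with genes of mitosis. The E2F-like letters searched were TTTCCCGC, TTTCCCGG, TTTCGCGC, TTTCGCGG, TTTGCCGC, TTTGCCGG, TTTGGCGC and TTTGGCGG. In the Bard1 window the match is TTTCCCGC at bases 42 to 49, in Brip1 TTTCGCGG at bases 64 to 71, and in Chek1 TTTGGCGG at bases 290 to 297, past the start. In Brip1 a CCAAT on the other strand at bases 152 to 156 overlaps a GC box at bases 155 to 160, and the palindrome TTCGAA in Uimc1 matches on both strands. The Brca1 window holds a single match, a CCAAT at bases 165 to 169. The Uimc1 window holds no E2F-like match but TTTGAA and TTCGAA, which are the CHR letters, a CCAAT on the other strand, and 3 GC boxes (GGGCGG on the other strand) just ahead of the start.

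RefSeq windows were found for 29 of the member genes, 32 windows in all because some genes have more than 1. An E2F-like match stood in 11 of the 32 (34.4%, in 10 genes), against 5.55% of 21263 windows of protein-coding genes and 4.51% of all 32851 windows. GC boxes were in 81.2%, against 46.2% of protein-coding windows and 35.7% of all, and the members' windows had a median GC content of 59.8% against 56.3%. CCAAT stood in 56.2%, against 38.2% and 37.4%, while the CHR letters, TTTGAA or TTCGAA, stood in 12.5%, against 17.6% and 19.2%. The genes with an E2F-like match were Bard1, Brip1, Chek1, Chek2, Brca2, Topbp1, Rad51c, Xrcc6, Rnf168 and Mdc1. Among the 5 genes blank throughout cortex that have a window, 3 held one, and among the 24 listed genes 7 did. The motifs were chosen after the signals had been seen, a match is not a bound site, and these shares are descriptions.

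In cortex on the A chip, 22 member probe sets of 17 genes could be tested and 0 were called, where 3.02% of all 12065 probe sets tested were. At an unadjusted p under 0.05 there were 2 of 22 (9.09%), Uimc1 upward and Rad52 downward, against 15.7% of all. At an adjusted p under 0.10 there was 1, Uimc1, against 5.03% of all. The groups did not overlap for 4 of the 18 members listed on all 6 arrays (22.2%), against 21.6% of all such probe sets. The median change of the members was -0.025, with 10 above 0 and 12 below, and the median of all probe sets tested was -0.0091. For 21 of the 22 the 95% interval stayed within 1 of 0 on the log2(signal + 16) scale, which for dim probe sets allows more than a 2-fold change in signal.

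The B chip gave 11 tested member probe sets of 10 genes and again 0 calls, against 0.281% of 7838. Of these, 1 (9.09%), a Brcc3 probe set, had an unadjusted p under 0.05, against 7.39%, and 1 of 8 (12.5%), an Atm probe set, had groups that did not overlap, against 13.6%. The median change was -0.18, with 4 above 0 and 7 below, beside 0.00027 for all probe sets. All 11 intervals stayed within 1 of 0 on that scale.

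The rest table allowed 40 member probe sets of 28 genes to be tested, with 0 called against 0.313% of 21407. Atm was the 1 member (2.5%) with an unadjusted p under 0.05, against 10.5% of all, and the groups did not overlap for 3 of 35 (8.57%), against 16.4%. The median change was -0.021, with 16 above 0 and 24 below, beside 0.00095 for all. For 39 of the 40 the interval stayed within 1 of 0. In all 3 tables the shares with a low p or separate groups were thus close to or below those of the arrays as a whole.

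**Figure D2:**
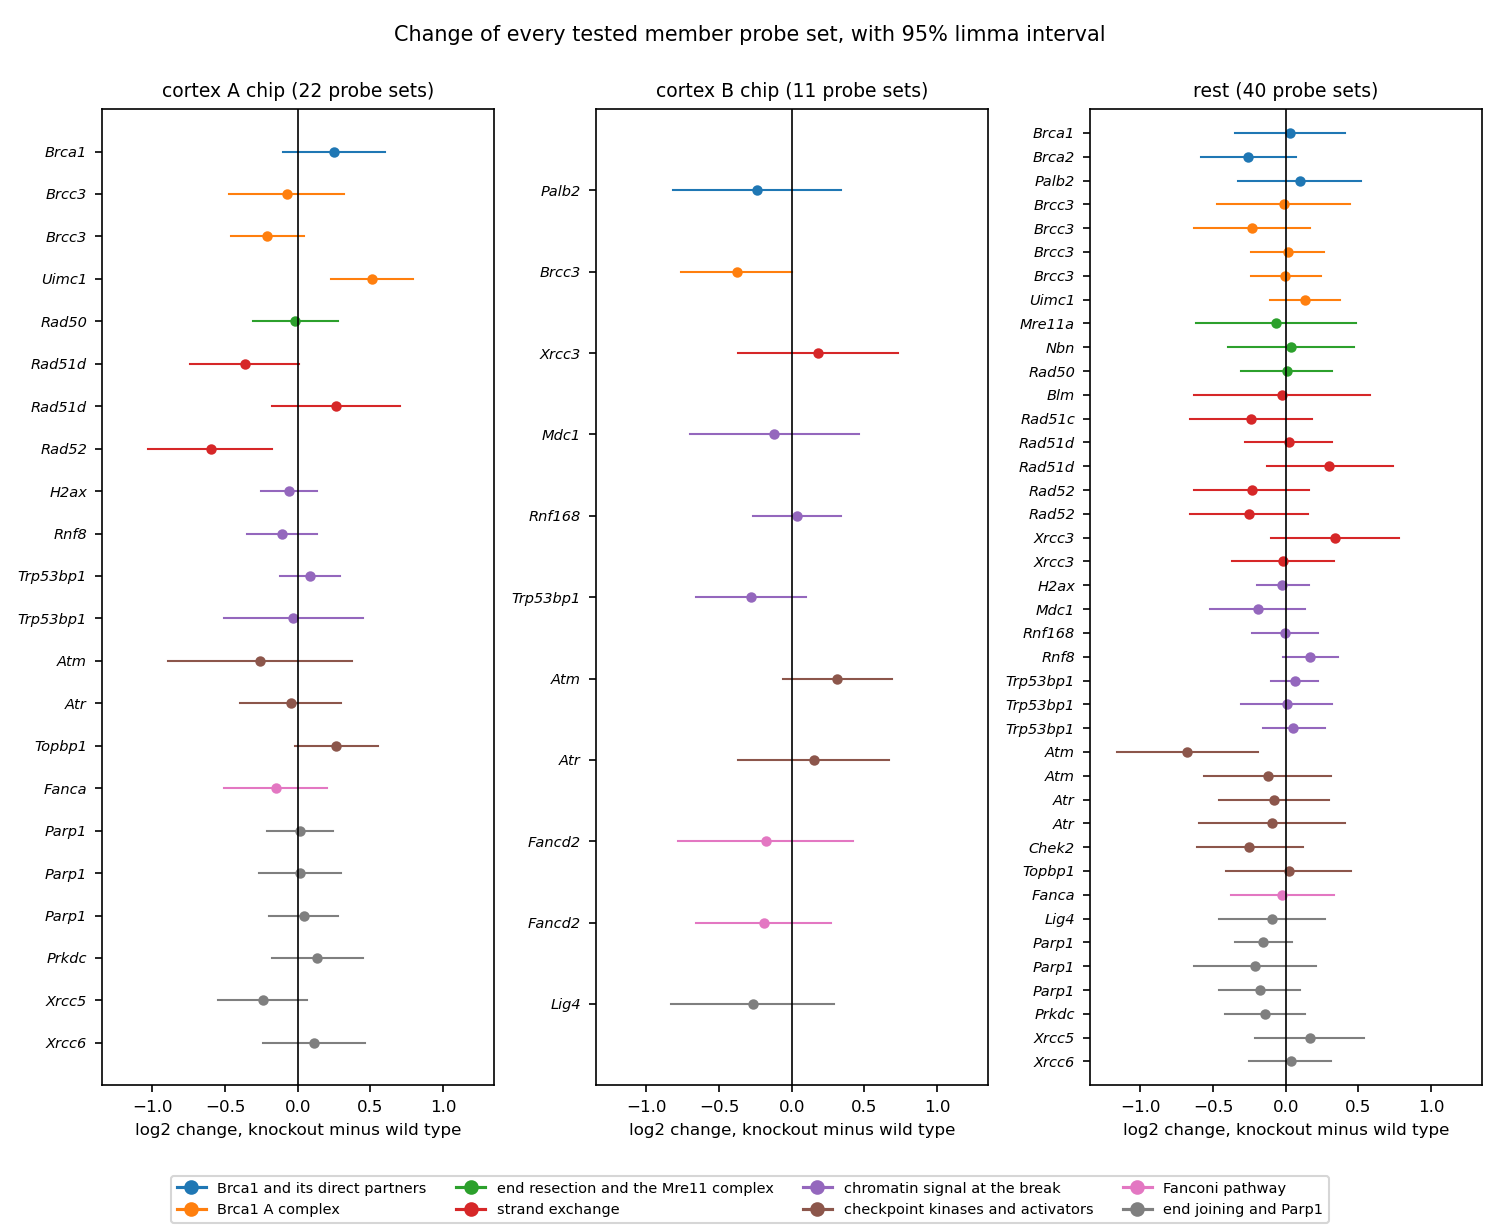
Points are the log2 changes, knockout minus wild type, of every tested member probe set, 22 on the A chip, 11 on the B chip and 40 in the rest table, and bars are the 95% intervals of the limma fit. The changes run from -0.60 to 0.51 for the A chip, -0.38 to 0.31 for the B chip and -0.68 to 0.34 for rest, most intervals include 0, and 0 probe sets were called.

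Brca1 itself was not lower in the knockout arrays. Its probe set 1424629_at read 38, 36.9 and 48.9 in wild-type cortex and 51.4, 44 and 61.4 in knockout cortex. The groups overlapped, with knockout replicate 2 inside the wild-type range. The log2 change was 0.25 (SE 0.159, limma adjusted p = 0.496, 95% interval -0.10 to 0.60). A signal 50% lower would have given -0.64 on this scale, which lies below that interval. That comparison concerns the signal of a single dim probe set. How its signal follows the amount of transcript was not tested, so it gives no bound on a loss of Brca1 RNA. Samples titled rest read 101.8, 111.8 and 114.3 in wild type and 118.5, 86 and 134.8 in knockout, so that the lowest and the highest value were both knockout arrays. There the change was 0.026 (SE 0.17, limma adjusted p = 0.978, 95% interval -0.35 to 0.41), and 50% less signal would have given -0.83. Other Brca1 probe sets were listed on few arrays of the rest table: 1451417_at at 40.9 in wild-type replicate 3 and 37.7 in knockout replicate 1, and 1427698_at at 34.6 in wild-type replicate 3. They were blank in cortex, and 1424630_a_at was blank everywhere. Which exons these probe sets read is not given in the sources used here, so a transcript that lacks exons 5 to 13 and an intact one cannot be told apart, and the targeted gene does not check the genotype labels.

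The direct partners that could be read were Brca2 and Palb2. Brca2 (1419076_a_at) was listed on 3 of 6 cortex arrays, at 61.7 in wild-type replicate 2 and at 67.1 and 58.3 in knockout replicates 1 and 3, too few for a fit. In the rest samples it read 110.6, 122.3 and 105.7 in wild type and 91.1, 102.8 and 82.5 in knockout. All knockout values lay below all wild-type values, by a log2 change of -0.26 that did not pass (limma adjusted p = 0.59). Palb2, the bridge between Brca1 and Brca2, read 93.2 and 101.6 in wild-type cortex, with replicate 3 blank, and 61.6, 88.6 and 93.1 in knockout cortex on the B chip (log2 -0.24, limma adjusted p = 0.931). Its rest values, 35.8, 34.3 and 37.5 against 51.9, 41.7 and 27.7, spread more widely among the knockout arrays than among the wild type and gave 0.099 (limma adjusted p = 0.905).

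Within the Brca1 A complex, which binds ubiquitin chains near breaks and holds Brca1 there, Uimc1 had the lowest p of all members in cortex. Uimc1 encodes RAP80, the subunit that reads those chains. Its probe set 1426829_at read 143.8, 159.1 and 141.3 in wild-type cortex (148.0 ± 9.63, SD, n = 3) and 192.1, 253.6 and 209.8 in knockout cortex (218.5 ± 31.6, n = 3). Each knockout array was above each wild-type array. The change was 0.51 (1.42-fold, SE 0.126, 95% interval 0.23 to 0.79), with an unadjusted limma p of 0.0021 and an adjusted p of 0.0606, short of the threshold. Rest samples read 332.2, 326.1 and 335.6 against 351.0, 329.8 and 416.1, where knockout replicate 2 lay within the wild-type range and replicate 3 was highest (log2 0.13, limma adjusted p = 0.74). The effect in rest minus that in cortex was -0.379 (SE 0.164, unadjusted p = 0.0362, limma adjusted p = 0.437), which did not pass.

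Brcc3 encodes the enzyme of the A complex that cuts the same ubiquitin chains, and its gene is on the X chromosome. On the A chip 1452128_a_at read 194.4, 183.4 and 211.5 in wild type and 165.5, 182.8 and 155.1 in knockout. The groups were apart by a small step between 183.4 and 182.8, and the change was -0.21 (limma adjusted p = 0.421). A second probe set there, 1437553_at, overlapped fully at 57.4, 53.6 and 50.5 against 59.7, 34.4 and 60.2 (log2 -0.075, limma adjusted p = 0.887). On the B chip 1447778_x_at read 558.3, 581.8 and 690.1 against 399.1, 599.3 and 414.1, a change of -0.38 (unadjusted p = 0.05, limma adjusted p = 0.676), with knockout replicate 2 inside the wild-type range. The same probe set read 245.5, 297.8 and 273.8 against 260.5, 277.1 and 285.7 in rest, at 0.013 (limma adjusted p = 0.982). The A chip probe sets gave -0.0027 (1452128_a_at) and -0.23 (1437553_at) in rest, and their differences between the tables, 0.207 and -0.155, did not pass (limma adjusted p = 0.662 and 0.885).

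**Figure D3:**
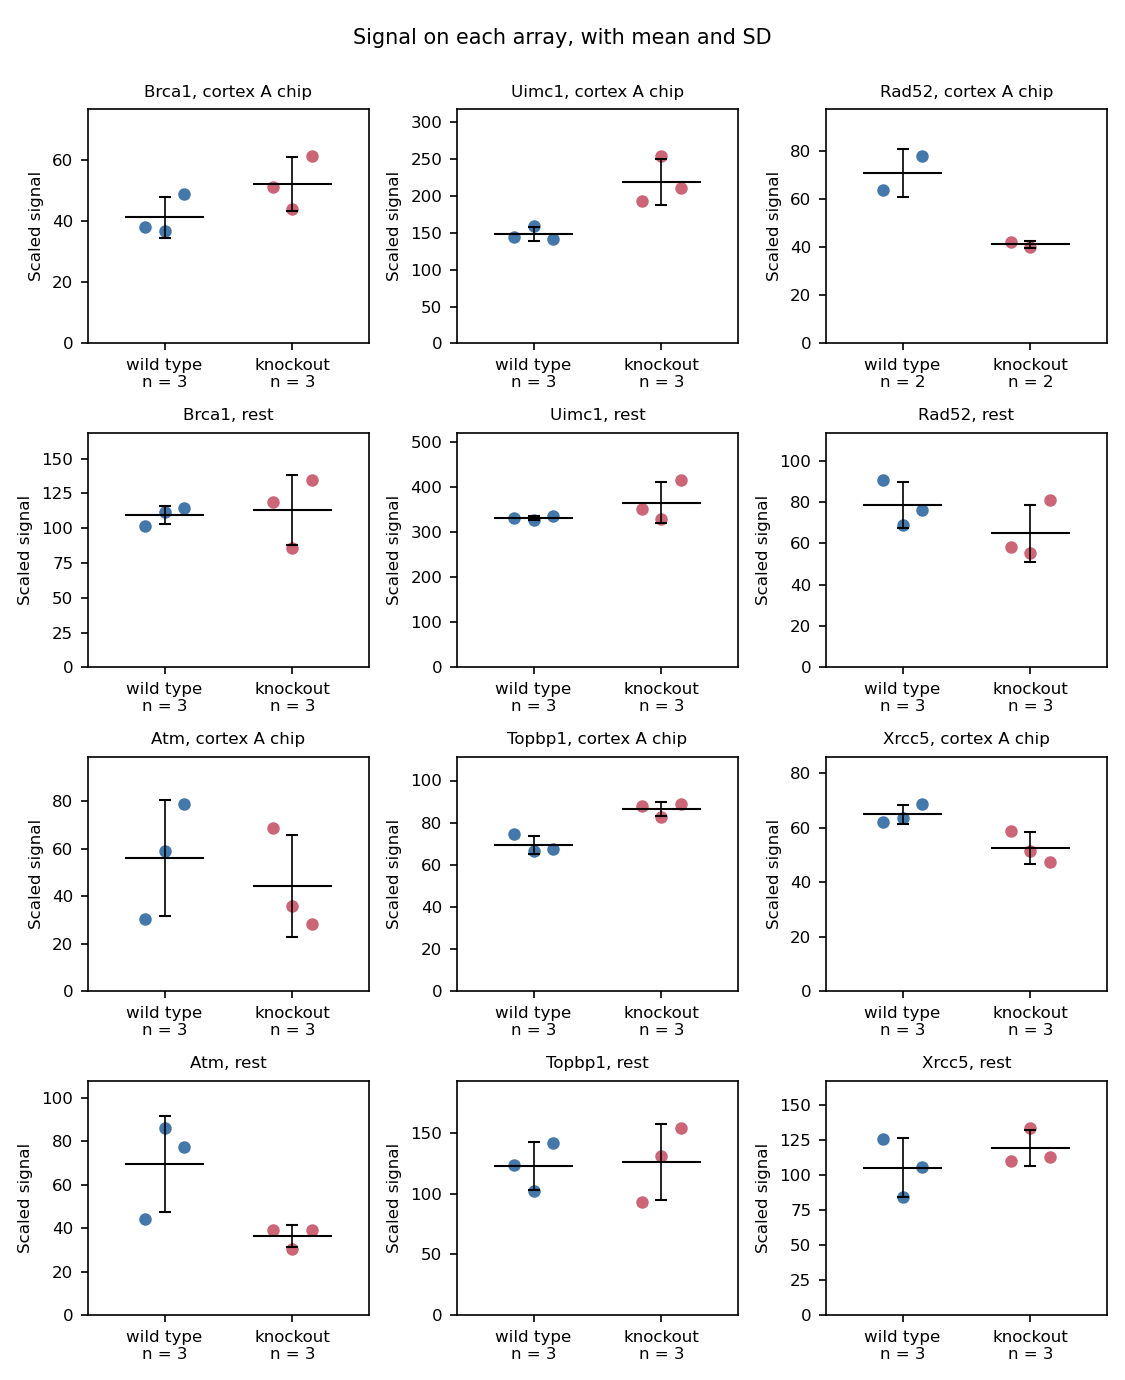
Panels show the scaled signal of each array, wild type and knockout, for Brca1, Uimc1, Rad52, Atm (1421205_at), Topbp1 and Xrcc5 in cortex on the A chip and in the rest table, with the group mean as a line and the SD as a bar. Uimc1 is above the wild type on all 3 knockout arrays in cortex, Atm is below it on all 3 in rest, and the Brca1 groups overlap in both tables.

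In the Mre11 complex, which holds broken ends and starts their resection, only Rad50 could be fitted in cortex. This long-armed ATPase read 132.6, 108.4 and 112.6 in wild-type and 118.2, 102.7 and 127.4 in knockout cortex (log2 -0.018, limma adjusted p = 0.964). It read 191.2, 138.9 and 166.6 against 168.0, 171.2 and 157.0 in rest (log2 0.008, limma adjusted p = 0.992). Knockout and wild-type values of Rad50 interleaved in both. Mre11a, the nuclease, was listed on 4 cortex arrays, at 60.2, 38.8 and 55.6 in wild type and at 37.1 in knockout replicate 2. Its rest values were 43.1, 75.7 and 92.3 against 62.6, 49.2 and 83.5 (log2 -0.068, 95% interval -0.62 to 0.48, limma adjusted p = 0.953), with a wide spread in either genotype. Nbn was listed on 5 rest arrays and gave 0.035 (95% interval -0.40 to 0.47, limma adjusted p = 0.972).

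Among the genes of strand exchange, Rad52, which anneals single strands, had the lowest p in cortex. Its probe set 1416602_a_at read 64.1 and 78.1 in wild-type replicates 1 and 3 and 42.3 and 40.2 in knockout replicates 1 and 2, while the remaining array of each genotype was blank. The 2 knockout values lay below the 2 wild-type values, a change of -0.60 (95% interval -1.03 to -0.18, unadjusted p = 0.011, limma adjusted p = 0.151) from 2 arrays a group. Both of these knockout arrays list Y-linked transcripts and neither of the wild-type arrays does, so genotype and sex cannot be told apart for that change. With all 6 arrays listed in rest, 1416602_a_at read 90.8, 68.9 and 76 against 58.4, 55.2 and 80.9. The groups overlapped there through knockout replicate 3 (log2 -0.23, limma adjusted p = 0.712). The other Rad52 probe set, 1426296_at, had too few values for a fit in cortex. It read 33.9 and 40.9 in wild-type replicates 1 and 3 and 38.7 in knockout replicate 3, inside the wild-type range. In rest it gave -0.25 (limma adjusted p = 0.689).

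Rad51d and Xrcc3 act in the strand-exchange step. Rad51d 1422770_at read 60.7 and 60.1 in wild-type cortex, with replicate 2 blank, and 42.8, 37.9 and 50.3 in knockout (log2 -0.36, limma adjusted p = 0.335), whereas 1425944_a_at read 31 and 27 against 35 and 40.9 (log2 0.26, limma adjusted p = 0.584). In rest the first read 101.2, 111.9 and 98 against 98.6, 106.6 and 110.6 (log2 0.02, limma adjusted p = 0.979). The second read 57, 42 and 70.1 against 81, 79.7 and 57.8 there (log2 0.30, limma adjusted p = 0.647). None of these differences passed. Xrcc3 1452748_at read 164.2 and 223.0 against 227.4 and 211.5 on the B chip, with 1 blank a genotype (log2 0.18, limma adjusted p = 0.948), and -0.019 was its change in rest (limma adjusted p = 0.982). The other Xrcc3 probe set, 1437623_x_at, read 36.6, 37 and 29.2 in wild type and 41.4 and 54.1 in knockout in rest, with knockout replicate 1 blank. Both listed knockout values were above the wild type, and its change of 0.34, the highest of the members in rest, did not pass (95% interval -0.10 to 0.78, limma adjusted p = 0.596). On the B chip it was listed at 81.3 in wild-type replicate 2 and at 107.9 and 120.7 in knockout replicates 2 and 3, too few for a fit. Rad51c changed by -0.24 in rest (limma adjusted p = 0.72) and Blm, the helicase that dissolves joined strands, by -0.024 (limma adjusted p = 0.986). Rad54l was listed on 3 rest arrays only.

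Genes that mark chromatin at the break had 11 of 11 probe sets listed on at least 1 rest array and 7 on all 6. Of all probe sets in rest, 60.1% and 42.8% were so listed. On the B chip 6 of 7 were listed on at least 1 array and 3 on all 6. H2ax, the histone variant phosphorylated beside breaks, read 412.4, 448.9 and 459.3 in wild-type and 434.2, 424.3 and 402.6 in knockout cortex (log2 -0.063, limma adjusted p = 0.791, 95% interval -0.25 to 0.13). Trp53bp1, which shields ends from resection and is the counterpart of Brca1 in the choice of repair route, read 918.6, 972.0 and 863.3 against 943.9, 1104.0 and 882.9 at 1426956_a_at (log2 0.084, limma adjusted p = 0.734). The genotypes interleaved for both genes. A second Trp53bp1 probe set, 1426957_at, was at 347.6 in wild-type replicate 3 and 341.6 in knockout replicate 3 and at 538.1 or more on the other arrays (log2 -0.032, 95% interval -0.51 to 0.45, limma adjusted p = 0.962). On the B chip Trp53bp1 1435609_at read 578.1, 572.0 and 633.4 against 546.4, 574.8 and 367.6, with knockout replicate 3 lowest (log2 -0.28, 95% interval -0.66 to 0.10, limma adjusted p = 0.821). Rnf168, a ubiquitin ligase that marks chromatin for Trp53bp1, read 797.8, 643.9 and 714.6 against 712.9, 785.9 and 707.2 on the B chip (log2 0.036, limma adjusted p = 0.993).

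Rnf8, the ligase that acts ahead of Rnf168, read 262.6, 271.8 and 249.3 against 255.9, 211.5 and 257.8 in cortex (log2 -0.11, limma adjusted p = 0.694). In rest it read 433.4, 475.2 and 456.1 against 541.2, 510.8 and 489.9. There the knockout arrays were all above the wild type, by 0.17 (1.13-fold, limma adjusted p = 0.544), which did not pass, and the difference between the tables was 0.28 (unadjusted p = 0.0517, limma adjusted p = 0.476). Mdc1, the scaffold that binds marked H2ax, gave -0.12 on the B chip and -0.19 in rest (limma adjusted p = 0.987 and 0.709).

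Atm, the kinase that answers breaks, carried the lowest p of the members in rest. Its probe set 1421205_at read 44.4, 86.3 and 77.5 in wild type and 39.1, 30.5 and 39.3 in knockout. All knockout values were below all wild-type values, though wild-type replicate 1 stood close to them. The change was -0.68 (SD 22.1 in wild type and 5.01 in knockout, n = 3 each, 95% interval -1.16 to -0.19, unadjusted p = 0.0109, limma adjusted p = 0.298). In cortex the same probe set read 30.4, 59 and 78.9 against 68.5, 35.7 and 28.1, which covers nearly the same range in either genotype (log2 -0.26, limma adjusted p = 0.734). The other Atm probe set, 1428830_at, did not show that difference. It read 208.0, 166.3 and 196.3 against 121.7, 200.1 and 208.9 in rest (log2 -0.12, limma adjusted p = 0.878). On the B chip it read 363.0, 257.3 and 355.8 against 404.7, 386.7 and 420.9, where the knockout arrays were the higher ones (log2 0.31, limma adjusted p = 0.784).

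Atr, the kinase of stalled forks, read 72.2, 76.9 and 74.1 against 85.7, 77.2 and 54.2 in cortex (log2 -0.05, limma adjusted p = 0.916) and changed by -0.081 in rest (limma adjusted p = 0.916). Topbp1, which activates Atr, read 74.4, 66.6 and 67.3 in wild-type and 88, 82.7 and 89 in knockout cortex. These groups were apart, by 0.26 (limma adjusted p = 0.355), and overlapped in rest at 123.6, 102.3 and 142.0 against 92.8, 130.8 and 154.6 (log2 0.021, limma adjusted p = 0.984). Of the effector kinases, Chek2 was fitted in rest only (log2 -0.25, limma adjusted p = 0.664). Of the 5 Chek1 probe sets in rest, only 1450677_at was listed. It read 45.5 and 34.9 on knockout replicates 1 and 2 and was listed on 0 wild-type arrays. Those knockout arrays list Y-linked transcripts, so genotype and sex cannot be told apart for that listing.

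The Fanconi genes, which unhook strands that are cross-linked to each other, had 2 of 4 probe sets listed on at least 1 array of the A chip, 3 of 4 on the B chip and 5 of 8 in rest. Fancd2, the protein that the pathway marks with ubiquitin, read 216.9, 172.7 and 258.2 against 146.4, 204.9 and 208.3 at 1439091_at on the B chip (log2 -0.19, limma adjusted p = 0.931). Its probe set 1438339_at read 135.1, 108.7 and 125.3 against 63, 113.4 and 164.7, so that the knockout arrays held both the lowest and the highest value (log2 -0.18, limma adjusted p = 0.959). Fanca, a subunit of the core complex, read 46.9, 32.6 and 39.9 against 37.8, 28.9 and 35.4 in cortex (log2 -0.15, limma adjusted p = 0.713) and changed by -0.023 in rest (limma adjusted p = 0.979). Fanci, the partner of Fancd2, was listed on 1 cortex array and 3 rest arrays.

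End joining had 6 of 6 probe sets listed on at least 1 array of the A chip, 1 of 3 on the B chip and 7 of 9 in rest, and no member passed. Xrcc5, the Ku80 subunit of the ring that caps broken ends, read 62.3, 63.8 and 68.9 in wild-type and 58.9, 51.5 and 47.4 in knockout cortex. The knockout values were lower on every array, by -0.24 (limma adjusted p = 0.443), while the rest values of 125.7, 83.9 and 105.8 against 110.2, 133.8 and 112.8 overlapped (log2 0.17, limma adjusted p = 0.792). The difference between the tables was 0.409 (SE 0.205, unadjusted p = 0.0664, limma adjusted p = 0.509). Xrcc6, the Ku70 subunit, gave 0.11 in cortex and 0.033 in rest (limma adjusted p = 0.802 and 0.955). Prkdc, the kinase that Ku recruits, gave 0.13 and -0.14 (limma adjusted p = 0.727 and 0.748), and Lig4, the ligase that seals the ends, -0.27 on the B chip and -0.093 in rest (limma adjusted p = 0.909 and 0.894).

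Parp1, which senses nicks and breaks and marks them with poly(ADP-ribose), was read by 3 probe sets whose cortex changes lay close to 0. They read 436.8 and 445.6 against 439.5, 481.5 and 418.5 at 1422502_at (log2 0.014, limma adjusted p = 0.963) and 203.5, 242.3 and 178.2 against 205.3, 191.5 and 231.2 at 1422503_s_at (log2 0.015, limma adjusted p = 0.97). At 1435368_a_at they read 197.1, 191.3 and 180.8 against 180.4, 199.6 and 207.8 (log2 0.041, limma adjusted p = 0.896). In rest all 3 were lower in knockout on average, by log2 changes of -0.16, -0.21 and -0.18 (limma adjusted p = 0.593, 0.762 and 0.678), with overlapping groups. Those probe sets read 1 gene and are not separate evidence.

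The difference of the knockout effect between rest and cortex could be tested for 22 member probe sets in a joint limma fit. It was called for 0, against 0.0502% of all 11959 shared probe sets, and 1 (Uimc1) had an unadjusted p under 0.05, against 10.5%. The median difference was -0.027, with 10 above 0 and 12 below, beside 0.01 for all. No other member had an adjusted p below 0.476. The fit took all arrays as independent, although the labels do not say whether cortex and rest samples shared animals. With same-numbered cortex and rest arrays of a genotype treated as a block, their consensus correlation was 0.0461.

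**Figure D4:**
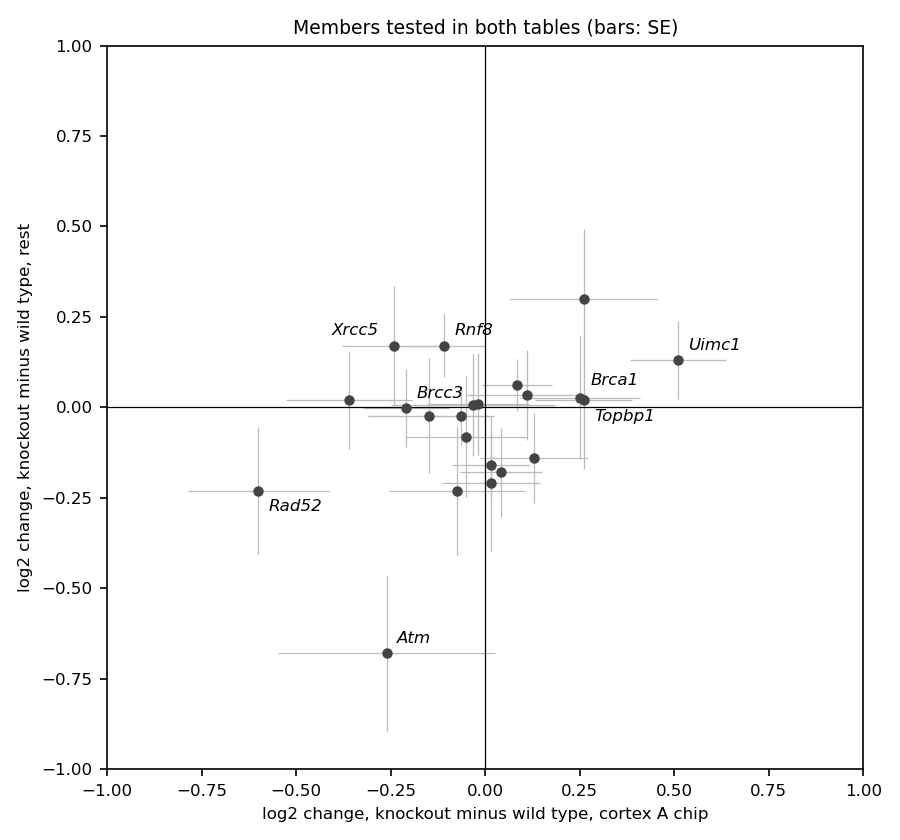
Each point is 1 of the 22 member probe sets tested in both tables, with its log2 change in cortex on the A chip on the x axis and in rest on the y axis, and the bars are the standard errors. Uimc1 lies farthest to the right at 0.51 and 0.13, Rad52 farthest to the left at -0.60 and -0.23, and Atm lowest at -0.26 and -0.68.

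Other genes of break repair, taken as a list of strand exchange, ubiquitin, helicase, resolvase, Fanconi, checkpoint, end-joining and chromatin factors outside the members, likewise held 0 calls. Of 65 probe sets of 47 genes tested on the A chip 0 were called, and 6 (9.23%, against 15.7% of all) had an unadjusted p under 0.05, 3 up and 3 down. The B chip had 0 of 23 (18 genes) called and 0 with an unadjusted p under 0.05, against 7.39% of all. In rest 0 of 101 (65 genes) were called, and 3 (2.97%, against 10.5%) had an unadjusted p under 0.05, 2 up and 1 down. The groups did not overlap for 10 of 58 on the A chip (17.2%, 3 up and 7 down), 0 of 19 on the B chip and 10 of 85 in rest (11.8%, 9 up and 1 down), against 21.6%, 13.6% and 16.4% of all. Lowest in p on the A chip were Smc5, a subunit of a cohesin-like ring, at -0.70 (limma adjusted p = 0.151), Swi5, a factor of strand exchange, at 0.39 (0.186), Rpa1, which coats single strands, at 0.20 (0.198) and a Rad21 probe set, a cohesin subunit, at 0.46 (0.216). Other probe sets of Smc5, Rpa1 and Rad21 gave -0.086, 0.21 and, for Rad21, -0.0061 and -0.083, so the size was not shared within Smc5 or Rad21. On the B chip they were Gen1, a resolvase, at -0.48 (limma adjusted p = 0.808), Rnf169 at 0.33, Herc2 at -0.42 and Kat5 at 0.23. In rest they were Ino80, a chromatin remodeller, at 0.42 (limma adjusted p = 0.434), a Ctc1 probe set at -0.27, Rif1, a partner of Trp53bp1, at 0.34 and Swi5 at -0.27. The Wee1 probe set 1416773_at, for the kinase that holds cells before mitosis, was listed in rest on all 3 knockout arrays, at 130.5, 188.4 and 157.4, and on 0 wild-type arrays, so no fold was computed; it was chosen after its values were seen.

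Signals of some cell type markers and of sex-linked transcripts differed with genotype beside these results. In cortex 9 of 10 tested mural and meningeal marker genes were called higher in knockout. Summed signals of that list were 3276.6 to 3767.4 in wild type and 9295.9 to 10859.8 in knockout. Oligodendrocyte genes were called lower for 4 of 6, with sums of 5637.1 to 7236.3 in wild type against 2129.1 to 2886.5. Microglial genes were called higher for 7 of 9, endothelial genes for 4 of 8 and astrocyte genes for 3 of 9 (Aqp4, Gfap and Gja1). Of the neuronal genes, 2 of 9 (Dcx and Gad1) were called lower. In rest 6 of 12 mural and meningeal genes were called higher, and 3 of 8 oligodendrocyte genes and 1 of 10 neuronal genes (Dcx) lower. Summed oligodendrocyte signals there were 41872.9 to 43447.5 in wild type and 5553.0 to 24230.4 in knockout. The median change of the tested oligodendrocyte probe sets was -2.0 in rest, so lower signals were not limited to the called genes. Markers of dividing cells, in which many of the members are used, were called for 0 of 15 genes in cortex, with sums of 2563.3 to 3043.1 against 2759.6 to 3031.0. The median change of the probe sets on that list was 0.22 on the A chip, beside -0.0091 for all probe sets tested. Of that list, 7 genes (Aurka, Aurkb, Birc5, Bub1, Bub1b, Cdc6 and Tyms) were blank on the A chip. In rest 0 of 19 were called, with sums of 5944.2 to 8199.3 against 6062.7 to 8346.8 and a median change of -0.059. Of the cerebellar granule precursor list, Atoh1, Barhl1 and Gli1 were blank in cortex and listed in rest. In cortex 2 of 4 tested genes, Mycn and Neurod1, were called lower, with sums of the list of 1374.4 to 2188.6 against 1190.1 to 1365.9. Whether those changes in cortex belong to that cell type was not tested. Zic1 rose by 0.57 in cortex on the A chip but was not called (limma adjusted p = 0.0824). In rest 0 of 10 genes on the precursor list were called. The part of these markers in the members' values was not tested.

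Y-linked transcripts were listed on knockout replicates 1 and 2 of every table but, apart from 1 dim Kdm5d value of 25.8 on wild-type replicate 2 in rest, on no wild-type array and not on knockout replicate 3, so genotype is partly joined with sex. For the Rad52 change in cortex they are fully joined, because its knockout values come from replicates 1 and 2 only. With this pattern as a term, which sets knockout replicate 3 alone against the wild type, Uimc1 in cortex had a change of 0.46 (limma adjusted p = 0.441), Brcc3 1447778_x_at on the B chip -0.54 (limma adjusted p = 0.395) and Atm 1421205_at in rest -0.59 (limma adjusted p = 0.783).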

How the data were processed

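Values were probe set intensity values on a linear scale that the authors deposited for 18 arrays in 3 tables, made with MAS5 per the submitters' processing notes, with no version or setting given, and with TRIZOL extraction per the labels' protocols. Genome build and probe positions are not given in the sources used here. Control probe sets were dropped. A trimmed mean (2% cut from either end) over the probe sets with 6 listed values set the scale of an array within its table, after which log2(signal + 16) was taken. Probe sets with at least 2 listed values a genotype were fitted with limma 3.58.1 in R 4.3.3 (lmFit, eBayes with an intensity trend), with Benjamini-Hochberg adjustment over all tested. The fit was tested on simulated data. Symbols came from the array annotation, updated through RefSeq identifiers. Probe sets annotated to several genes were left out, the Atrip and Trex1 probe set among them.

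Per-array values are given for listed Brca1 probe sets, members with p under 0.05, and up to 3 of the brightest fully listed probe sets a role; from the pathway list, the 4 lowest p a table. Values given outside this rule were chosen after they were seen. Members, lists and tests were chosen with earlier results of these data known, and the promoter motifs after the signals were seen. Alternatives were other scalings, offsets, blank rules, variance models, array weights, a replicate block, a sex-marker term and each array left out.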

Additional observations from a re-analysis of the deposited data

How the results depend on the processing

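No member probe set reached an adjusted p under 0.05 in limma in any table, or for the difference between tables, under any alternative run. The lowest adjusted p of a member ranged from 0.0562 to 0.441 for the A chip, 0.174 to 0.946 for the B chip and 0.159 to 0.693 for rest. At an adjusted p under 0.10 the A chip gave 1 member, Uimc1, whose change ranged from 0.40 to 0.59. With blanks set to a low signal the pathway list gave 1 call in rest, Wee1 (limma adjusted p = 0.0151), blank on all wild-type arrays there. Medians of the members moved with blanks set low to 0.047 (A chip) and -0.027 (B chip), with the sex-marker term to -0.032 on the B chip and 0.032 in rest, and with quantile normalization to 0.021 in rest. Leaving out each array in turn they ranged from -0.034 to 0.011 for the A chip, -0.26 to -0.043 for the B chip and -0.096 to -0.013 for rest. Brca1 in rest ran from -0.016 with array weights to 0.27 with the sex-marker term and from -0.096 to 0.19 with an array left out, the lowest without knockout replicate 3. In cortex it ran from 0.14 to 0.44, again highest with the sex-marker term, and no setting gave an adjusted p under 0.401 in limma. Member probe sets listed per array, knockout minus wild type, ranged from -3 to -0.5 for the A chip, -1.33 to 1 for the B chip and -1.33 to 3.17 for rest. The cause of these shifts was not tested.

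Deviations of same-numbered wild-type and knockout arrays of a table had correlations from -0.00876 to 0.0189 for the A chip. For the B chip they ran from 0.0721 to 0.159 and for rest from 0.0227 to 0.251. Differently numbered pairs ran from -0.052 to 0.0427, -0.164 to 1.82e-05 and -0.203 to 0.143. Only on the B chip was every same-numbered pair above every other pair. With the replicate block there were 0 member calls in all tables, and Uimc1 had a change of 0.51 (limma adjusted p = 0.0724). Dim signal and blanks limit what could be read: 16, 12 and 20 member probe sets of the A chip, B chip and rest table were blank on all arrays.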
